A study of Mus musculus with 6 samples.

Results

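The interleukin receptors that share the common gamma chain, and the chains that pair with them for the type 2 cytokines IL-4, IL-13 and TSLP, are described here in skin mast cells. The 10 genes Il2rg, Il2ra, Il2rb, Il4ra, Il7r, Il9r, Il21r, Il13ra1, Crlf2 and Il15ra were chosen by name from the 47643 genes of the deposited count table. All 10 were found, and 9 of them were among the 15111 genes with enough counts to be tested. Only Il2ra fell below that filter.

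The common gamma chain, encoded by Il2rg, has no cytokine of its own and completes the receptors for IL-2, IL-4, IL-7, IL-9, IL-15 and IL-21. The gamma chain carries the kinase JAK3, and the signalling chain it pairs with (Il2rb, Il4ra, Il7r, Il9r or Il21r) carries JAK1, and the paired kinases activate STAT proteins. Il2ra and Il15ra bind IL-2 and IL-15 but carry no Janus kinase. IL-4 can also signal through Il4ra joined to Il13ra1, the receptor that serves IL-13, and TSLP, an alarm cytokine of epithelia, binds Crlf2 joined to Il7r. IL-4 and IL-9 are known as growth and differentiation signals of mast cells.

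The libraries came from 6 samples of mast cells sorted from mouse skin, 3 from E16.5 embryos (age in embryonic days) and 3 from adults, whose age in weeks the labels do not give. All the mice carried Cdh5CreERT2, a tamoxifen-inducible Cre driven by an endothelial promoter, and were pulsed with 4OHT at E7.5. The submitters describe the embryonic cells as derived from yolk sac hemogenic endothelium and the adult cells as definitive, but the labels do not say that cells were sorted on a Cre reporter. The embryonic gate was CD45+ F4/80- CD64- ckit+ ST2+. The adult gate shared the first 4 markers and used Fcer1+ in place of ST2+, and the epidermis was removed from adult skin only. Age, described origin, the last sort marker and this tissue step therefore cannot be told apart. Nothing in the labels says whether replicates were separate animals, so a p-value here reflects just the library-to-library spread, which may be technical.

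Each library held 34122162 to 49813523 counts in genes. Summed over 13 mast cell markers, the level was 125300 to 136800 CPM in the embryo and 64210 to 68290 CPM in the adult, where CPM is a gene's count relative to its library's scaled total. The sum is mostly Hdc, Cpa3 and Cma1, all higher in the embryo. Of the 13 markers, 6 were higher in the embryo, 4 were higher in the adult and 3 did not pass the test. Fcer1a, a chain of the receptor named in the adult gate, ranged from 4.39 to 7.32 CPM in the embryo and from 552 to 907 CPM in the adult. Dendritic and Langerhans cell markers gave 48.9 to 68.0 CPM in the embryo and 3379, 2982 and 1140 CPM in adult replicates 1, 2 and 3, with 9 of 11 higher in the adult. Their adult sum is mostly Cd74, H2-Ab1 and H2-Aa, at means of 1064, 724.5 and 355.6 CPM. Macrophage markers summed to 18.2 to 48.0 and 182 to 265 CPM, with 10 of 11 tested higher in the adult. Keratinocyte markers stood apart in embryonic replicate 3, at 596 CPM against 64.5 and 128 CPM in the other embryonic libraries and 37.0 to 63.4 CPM in the adult. In sorted bulk samples, fewer cells of a type and less RNA per cell cannot be told apart.

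Of the 9 tested receptor chains, 6 were higher in adult cells (Il2rg, Il2rb, Il7r, Il9r, Il13ra1 and Crlf2), 2 were higher in embryonic cells (Il4ra and Il21r) and Il15ra did not pass the test. Among all tested genes 31.7% were called higher in adult and 31.2% higher in embryonic cells, 63.0% in all. The members' median log2 fold change, embryonic minus adult, was -1.14, against -0.02 over all tested genes. Il2rb passed the filter only through its adult libraries and Il21r only through its embryonic ones, so the counts describe these chains and support nothing further. In 8 of the 9 tested chains no library of 1 group lay within the range of the other, which held for 70.0% of all tested genes. These are the 8 called chains, so this is not a separate result. Changes are fitted folds of edgeR's quasi-likelihood test, with p-values adjusted over all 15111 genes and called under 0.05.

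**Figure D1:**
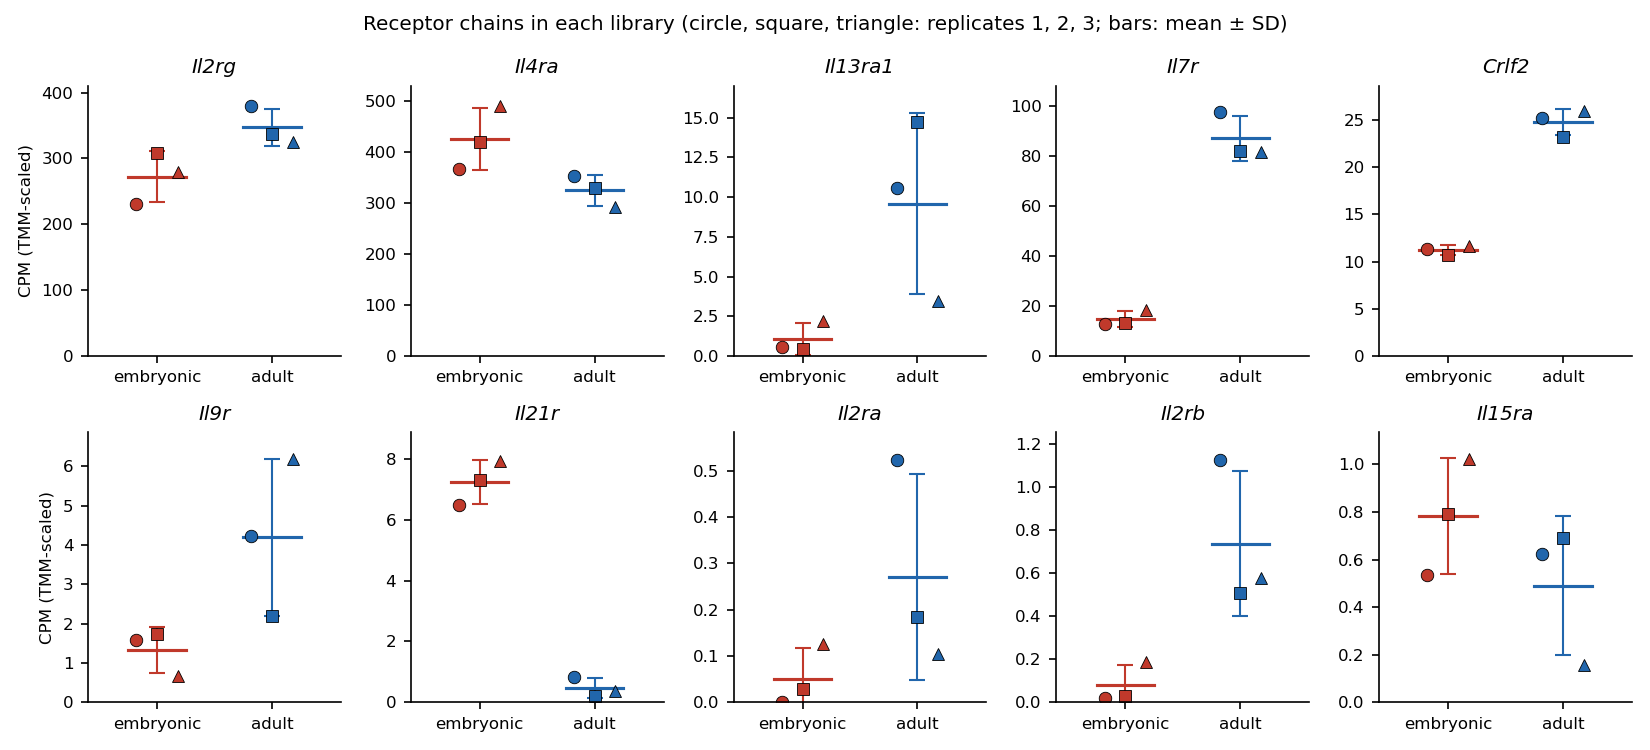
CPM of each of the 10 receptor chains (linear axes from 0) in 3 libraries of embryonic cells (red) and 3 of adult cells (blue), with group means and SD. Il7r averages 14.8 CPM (embryonic) and 87.2 CPM (adult) and Il21r 7.23 and 0.467 CPM, whereas the Il15ra libraries of both groups overlap.

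The start regions of the chains that the results turn on are printed here because they belong to 1 receptor family and changed in different directions. RefSeq start windows, each 250 bases before to 50 bases after a start, were available on GRCm38.p6 for 9 of the 10 genes. The bases before the start, as far as they lie outside the gene's own exons, read 5′ to 3′ along the gene. Capitals mark every match on either strand. The letters searched were AGATAA for GATA factors, TTC and GAA with any 3 or any 4 bases between them for STAT factors, TGTGGT for RUNX, CACGTG and CATGTG as E-boxes, CCGGAA for ETS, TGANTCA for AP-1, and the NF-kB motif GGGA and CC with any 4 bases between them. No matches overlap in these stretches.
Il2rg (chrX:101268256-101268505, minus strand): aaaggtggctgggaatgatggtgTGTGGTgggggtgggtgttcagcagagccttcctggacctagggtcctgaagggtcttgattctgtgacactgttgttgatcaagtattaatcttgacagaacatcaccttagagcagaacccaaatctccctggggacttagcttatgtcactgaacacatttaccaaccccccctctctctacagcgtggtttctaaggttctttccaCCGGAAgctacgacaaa
Il4ra (chr7:125552021-125552119, plus strand): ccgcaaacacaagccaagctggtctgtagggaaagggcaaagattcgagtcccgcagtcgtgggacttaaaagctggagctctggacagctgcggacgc
Il7r (chr15:9529877-9530126, minus strand): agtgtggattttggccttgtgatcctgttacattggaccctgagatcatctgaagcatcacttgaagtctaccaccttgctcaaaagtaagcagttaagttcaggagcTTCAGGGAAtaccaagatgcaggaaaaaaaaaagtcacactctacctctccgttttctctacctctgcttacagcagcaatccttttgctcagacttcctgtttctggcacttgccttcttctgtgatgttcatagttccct
Il21r (chr7:125603179-125603428, plus strand): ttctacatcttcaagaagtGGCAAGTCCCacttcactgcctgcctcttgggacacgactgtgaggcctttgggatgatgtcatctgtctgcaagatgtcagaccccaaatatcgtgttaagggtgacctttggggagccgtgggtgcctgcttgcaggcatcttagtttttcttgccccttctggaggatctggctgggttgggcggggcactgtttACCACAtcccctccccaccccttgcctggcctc
Il9r (chr11:32200280-32200529, minus strand): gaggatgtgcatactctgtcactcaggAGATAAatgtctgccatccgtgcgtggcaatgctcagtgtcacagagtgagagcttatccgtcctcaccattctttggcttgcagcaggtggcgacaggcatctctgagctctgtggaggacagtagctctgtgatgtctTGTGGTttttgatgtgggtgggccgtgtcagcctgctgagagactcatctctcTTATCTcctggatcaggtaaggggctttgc
RUNX letters were present in the windows of Crlf2, Il21r, Il9r, Il7r and Il2rg, 5 of the 10 member windows (Il15ra has 2), against 16.8% of 32851 windows. The Il7r match to them lies after the start and is not printed. GATA letters occurred only in Il9r among these genes, at 223 and 30 bases before its start, against 11.2% of windows. The STAT letters with a spacer of 3 bases occurred only in Il7r, 142 bases before its start, against 8.3% of windows, and those with a spacer of 4 bases in none of these genes, against 6.95%. ETS letters stood 17 bases before the Il2rg start and in 1 Il15ra window (14.9% of all windows). NF-kB letters were found in Il2ra, Crlf2, Il21r and Il13ra1 (20.7%), AP-1 letters in 1 Il15ra window (7.81%), and the E-boxes CACGTG (7.15%) and CATGTG (14.2%) in none of them. The Il4ra window held none of these letters. Its GC content was 62.0%, against 45.7% for Il7r, 71.7% for Crlf2, 71.0% for Il13ra1 and a median of 52.7% over all windows. A match is a description of letters only.

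The common gamma chain was the most abundant of the 10 per exon length in both groups and was slightly higher in adult cells. Il2rg (ENSMUSG00000031304.18, chromosome X, 101264378 to 101268255 in GRCm38, minus strand) was at 231, 308 and 279 CPM in embryonic libraries and at 379, 337 and 325 CPM in adult libraries. The lowest adult library lay above the highest embryonic library by less than the range within either group. The adult level was 1.27-fold higher (log2 fold change -0.35 ± 0.12 SE, adjusted p = 0.031). This call was lost in 4 of the 6 fits that left out 1 library, most clearly without embryonic replicate 1 (-0.22, adjusted p = 0.14), and also without embryonic replicate 3 (0.057), adult replicate 1 (0.11) or adult replicate 2 (0.054). Of its 2387 exon bases, 728 (30.5%) are also exons of Gm20489, a predicted gene on the same strand, and reads there were not counted, so the level is understated in both groups. Gm20489 itself had 1 count in all embryonic and 2 counts in all adult libraries.

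Il4ra, the chain that binds IL-4 and is shared by both IL-4 receptors, was slightly higher in embryonic cells. Il4ra (ENSMUSG00000030748.9, chromosome 7, 125552120 to 125579474, plus strand) was at 367, 419 and 489 CPM in embryonic libraries and at 352, 329 and 291 CPM in adult libraries. Embryonic replicate 1 and adult replicate 1 were close to each other, and the groups did not overlap. The embryonic level was 1.31-fold higher (log2 fold change 0.39 ± 0.13 SE, adjusted p = 0.021). The call was lost without adult replicate 2 (adjusted p = 0.053), without adult replicate 3 (0.076) and without embryonic replicate 3 and adult replicate 3 together (log2 fold change 0.21, adjusted p = 0.17). An antisense gene, Gm44876, covers 571 of its 6002 exon bases and had 0 counts in all libraries. Counting was without strand, so reads in those shared bases were not counted, and the Il4ra level is also understated in both groups.

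Il13ra1, the partner that turns Il4ra into the receptor for IL-13, was low in embryonic cells and higher but uneven in adult cells. Il13ra1 (ENSMUSG00000017057.9, chromosome X, 36112110 to 36171259) was at 0.537, 0.425 and 2.21 CPM in embryonic libraries and at 10.6, 14.7 and 3.47 CPM in adult libraries. Adult replicate 3, the lowest adult library, was still above embryonic replicate 3, the highest embryonic library. The adult level was 8.92-fold higher (log2 fold change -3.16 ± 0.80 SE, adjusted p = 0.013), 19.1-fold higher without embryonic replicate 3 and 25.9-fold higher without embryonic replicate 3 and adult replicate 3. Dendritic and Langerhans cell markers moved the same way across the adult libraries, being highest in replicates 1 and 2 and lowest in replicate 3. The macrophage sum was also lowest in replicate 3, at 255, 265 and 182 CPM in adult replicates 1, 2 and 3. That drop lay in Lyz2, at 142.1, 167.9 and 62.55 CPM. Cd68 (77.96, 59.91 and 83.55 CPM) and Cd163 (12.59, 16.11 and 18.05 CPM) were highest in replicate 3, and the other macrophage markers were mixed. In embryonic replicates 1, 2 and 3 the macrophage markers summed to 18.2, 27.1 and 48.0 CPM. The fibroblast list summed to 947, 918 and 625 CPM in adult replicates 1, 2 and 3, and its members other than Pdgfrb (442, 475 and 533 CPM) were lowest in replicate 3. Between groups, 2 of its 8 members were higher in the adult, Pdgfrb and Dcn, while Col3a1 averaged 291 CPM in the embryo and 95.8 CPM in the adult and Col1a2 137 and 83.4 CPM, neither of them called. In embryonic libraries Il13ra1, the macrophage markers and the keratinocyte markers were all highest in replicate 3. The dendritic and Langerhans cell markers were lowest there, at 51.3, 68.0 and 48.9 CPM in embryonic replicates 1, 2 and 3. The part of such cells in the Il13ra1 difference was not tested.

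**Figure D2:**
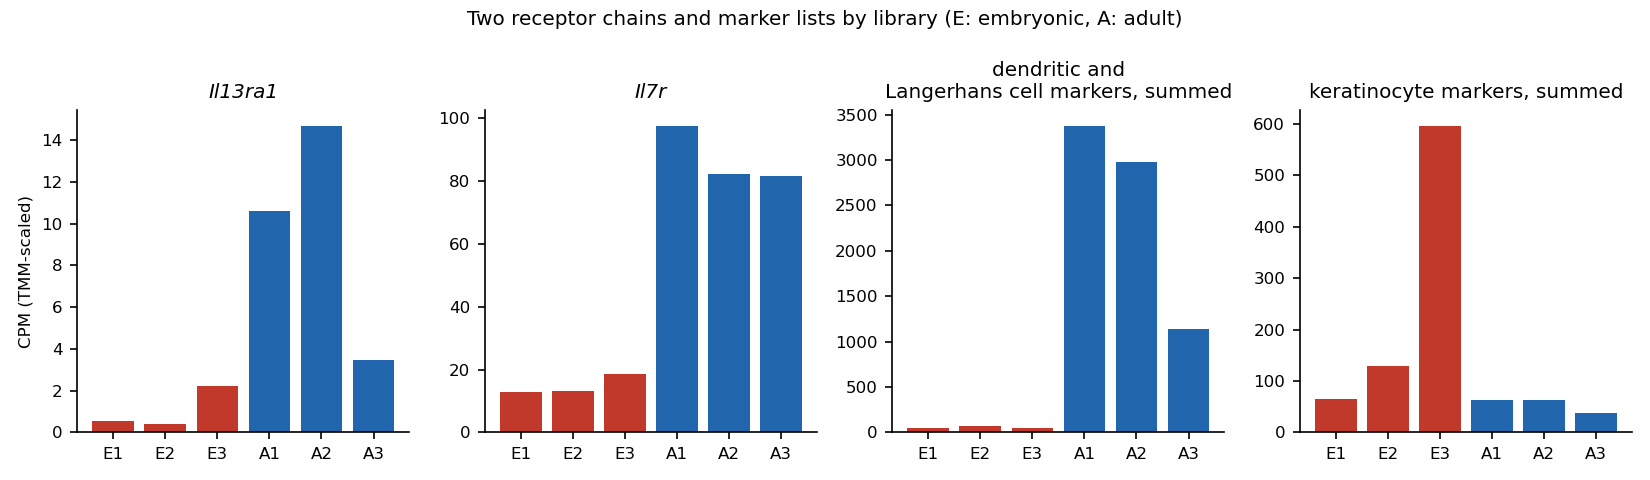
CPM of Il13ra1 and Il7r and summed CPM of dendritic and Langerhans cell markers and of keratinocyte markers (bars, linear axes from 0) in embryonic libraries 1 to 3 (red) and adult libraries 1 to 3 (blue). Il13ra1 and the dendritic and Langerhans cell markers are lowest in replicate 3 among adult libraries, at 3.47 and 1140 CPM. Il7r is at 97.7, 82.2 and 81.7 CPM in adult libraries 1, 2 and 3.

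Il7r, which binds IL-7 with the gamma chain and TSLP with Crlf2, showed the largest difference toward the adult among chains above 10 CPM in every library. Il7r (ENSMUSG00000003882.4, chromosome 15, 9506161 to 9529876, minus strand) was at 12.7, 13.3 and 18.5 CPM in embryonic libraries and at 97.7, 82.2 and 81.7 CPM in adult libraries. Every adult library was above 80 CPM and every embryonic library below 20 CPM. The adult level was 5.88-fold higher (log2 fold change -2.56 ± 0.16 SE, adjusted p = 8.0e-07), and the call held in all 16 alternative analyses, at 5.40-fold to 6.91-fold. Il7r is also a marker of lymphocytes, and their lists moved as follows. The 10 T cell markers together reached 2.67 to 3.40 CPM in the embryo and 5.97 to 11.03 CPM in the adult. Of the 3 tested, Cd4 was higher in the adult, at 6.11 against 0.101 CPM, Cd3g was higher in the embryo, at 2.49 against 0.205 CPM, and Lck was not called. The 10 markers of group 2 innate lymphoid cells summed to 521 to 1262 CPM in embryonic cells and 305 to 416 CPM in adult cells, mostly Hes1 and Gfi1. Of the 8 tested, Gata3 and Il13 were higher in the adult, as Il7r was, Gata3 at 28.1 against 6.17 CPM and Il13 at 41.1 against 8.05 CPM, and 3 were higher in the embryo. Among the markers too low to be tested, Cd3e and Cd3d reached at most 0.483 and 0.316 CPM in any library. Il17rb and Il5 reached at most 0.181 and 0.474 CPM. Summed counts were 1 embryonic and 42 adult for Cd3e, 6 and 22 for Cd3d, 17 and 18 for Il17rb and 0 and 23 for Il5. Of the other untested T cell markers, Cd28 had 4 and 61 counts and Cd8a 0 and 14. Cd8b1 had 0 and 12 counts, Cd5 5 and 8 and Themis 15 and 14. The part of such cells in the Il7r difference was not tested.

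Crlf2, the TSLP-binding chain, was also higher in adult cells and varied least among replicates. Crlf2 (ENSMUSG00000033467.12, chromosome 5, 109554709 to 109558993, minus strand) was at 11.3, 10.7 and 11.7 CPM in embryonic libraries and at 25.2, 23.2 and 26.0 CPM in adult libraries. The gap between the groups was several times the range within each. It was 2.21-fold higher in the adult (log2 fold change -1.14 ± 0.12 SE, adjusted p = 2.9e-05), and all 16 alternatives kept the call at 2.08-fold to 2.29-fold. Both chains of the TSLP receptor were thus higher in adult libraries, Il7r by more than Crlf2.

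Il9r, the private chain for the mast cell growth factor IL-9, was low in both groups and higher in adult cells. Il9r (ENSMUSG00000020279.10, chromosome 11, 32187541 to 32200279, minus strand) was at 1.59, 1.73 and 0.668 CPM in embryonic libraries and at 4.22, 2.19 and 6.18 CPM in adult libraries. Adult replicate 2 lay close to the embryonic libraries, and the adult libraries differed among themselves almost 3-fold. The adult level was 3.17-fold higher (log2 fold change -1.66 ± 0.47 SE, adjusted p = 0.012). Without embryonic replicate 3 and adult replicate 3 it was 1.93-fold and no longer passed (adjusted p = 0.055).

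Il21r, the private chain for IL-21, had the largest change toward the embryo. Il21r (ENSMUSG00000030745.9, chromosome 7, 125603429 to 125633570, plus strand) was at 6.46, 7.31 and 7.93 CPM in embryonic libraries and at 0.825, 0.208 and 0.368 CPM in adult libraries. The embryonic libraries were close together, and the adult values rest on 41, 9 and 14 counts. The embryonic level was 15.2-fold higher (log2 fold change 3.92 ± 0.45 SE, adjusted p = 4.2e-05). The log2 fold change was 4.64 when adult replicate 1 was left out, and all 16 alternatives kept the call. Il21r lies 23954 bases beyond Il4ra on the same strand of chromosome 7, and both of these neighbours were higher in embryonic cells, by 15.2-fold and 1.31-fold.

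The chains of the IL-2 and IL-15 receptors were near the detection limit. Il2rb, the signalling chain that both receptors share (ENSMUSG00000068227.8, chromosome 15, 78480553 to 78495066), had 1, 1 and 9 counts in embryonic libraries and 56, 22 and 22 counts in adult libraries. These are 0.0215, 0.0283 and 0.188 CPM against 1.13, 0.508 and 0.579 CPM, where 3 counts correspond to 0.0603 to 0.0850 CPM. Embryonic replicates 1 and 2 were below that floor, and the adult libraries were all above the embryonic ones. The adult level was 8.72-fold higher (log2 fold change -3.13 ± 0.79 SE, adjusted p = 0.0061) and 26.3-fold higher without embryonic replicate 3. Without that library the ratio of summed counts, 100 adult against 2 embryonic, was 31.2 with a 95% exact binomial counting interval of 8.42 to 261.

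Il2ra, the chain that gives the IL-2 receptor high affinity (ENSMUSG00000026770.5, chromosome 2, 11642807 to 11693193), had 0, 1 and 6 counts in embryonic and 26, 8 and 4 counts in adult libraries and was not tested. The groups overlapped, and adult replicate 1 held most of the adult counts. The adult to embryonic ratio of summed counts was 5.38 (95% exact binomial interval 2.37 to 14.3) and 2.74 (0.993 to 8.20) without adult replicate 1. Such intervals cover counting error only. Il15ra, which binds and presents IL-15 (ENSMUSG00000023206.16, chromosome 2, 11705290 to 11734317), lies 12096 bases beyond Il2ra. It was at 0.537, 0.793 and 1.02 CPM in embryonic and at 0.624, 0.692 and 0.158 CPM in adult libraries. The groups overlapped, and the difference was not called (log2 fold change 0.66 ± 0.59 SE, adjusted p = 0.35), which does not show that the levels were alike. Il2rb is also abundant in NK cells, and 3 of 5 tested NK cell markers were higher in the adult, as Il2rb was. These were Klrk1, at 7.97 against 0.0423 CPM, Tbx21, at 1.17 against 0.072 CPM, and Klrd1, at 1.17 against 0.0775 CPM. Nkg7, at 25.5 CPM in the embryo and 6.76 CPM in the adult, and Prf1 went the other way, and Ncr1 and Klrb1c had 0 counts in every library. All 10 together gave 23.5 to 29.5 CPM in the embryo and 14.0 to 21.2 CPM in the adult, and their part in the Il2rb difference was not tested.

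**Figure D3:**
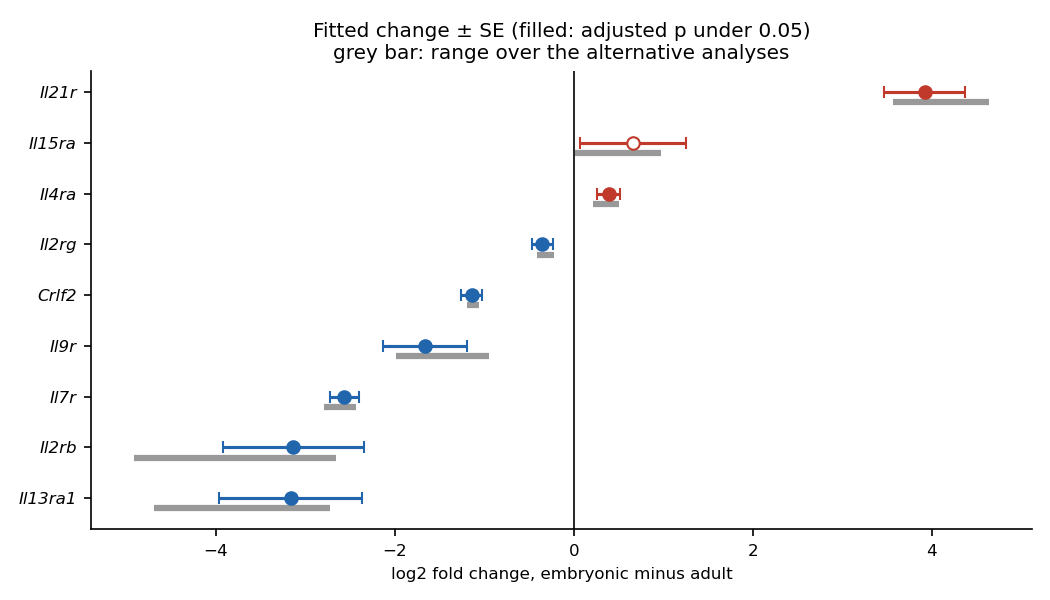
Log2 fold change (embryonic minus adult) of the 9 tested receptor chains with SE (points; filled where the adjusted p is under 0.05) and the range over the alternative analyses (grey bars). Il21r lies at 3.92 and Il13ra1 at -3.16, and the grey bars of Il2rb and Il13ra1 reach -4.91 and -4.69.

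Levels of different genes can be set side by side only per length, as CPM per kilobase of exon. On this scale the embryonic order was Il2rg (114 ± 16.3, SD, n = 3), Il4ra (70.8 ± 10.2), Crlf2 (7.51 ± 0.346), Il7r (4.62 ± 0.990) and Il21r (2.18 ± 0.221), followed by Il13ra1, Il9r, Il15ra, Il2rb and Il2ra at means of 0.285 or less. The first 5 were apart from their neighbours in every library, while the libraries of Il13ra1 and Il9r, of Il9r and Il15ra, and of Il2rb and Il2ra overlapped. The adult order was Il2rg (145 ± 11.9), Il4ra (54.0 ± 5.07), Il7r (27.2 ± 2.83), Crlf2 (16.6 ± 0.949), Il13ra1 (2.58 ± 1.53) and Il9r (0.849 ± 0.404), then Il2rb, Il21r, Il15ra and Il2ra. Il13ra1 and Il9r overlapped there, and so did all neighbours from Il2rb down. Between the groups Il7r and Crlf2 thus changed places, and Il21r went from rank 5 to rank 8. Over the unshared exon bases alone, Il2rg averaged 164 ± 23.4 in embryonic and 209 ± 17.1 in adult libraries and Il4ra 78.3 ± 11.3 and 59.7 ± 5.60, which left their order as it was.

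The balance of chains within each library was compared for 9 pairs that form receptors or compete for a partner, as the log2 ratio of counts per exon kilobase. In 7 of the 9 pairs every embryonic library lay on the same side of every adult library. Taken singly, 70.0% of all tested genes did so, and the pairs share chains, so they are not separate results. For each of those 7 the exact two-sided permutation test gave p = 0.1, the smallest that 3 against 3 libraries allow, and an adjusted p = 0.129 over the 9 pairs, so no pair could pass the threshold. The Il4ra to Il2rg ratio, for the IL-4 receptor that uses the gamma chain, was -0.66, -0.88 and -0.52 in embryonic and -1.44, -1.36 and -1.49 in adult libraries. As a linear ratio over full exon lengths, Il4ra stood at 0.621 of Il2rg in embryonic cells and at 0.371 in adult cells. Reads in 728 of the 2387 Il2rg exon bases were not counted, so ratios to Il2rg, here and below, come out too high in both groups. Per kilobase of unshared exon, Il4ra averaged 78.3 CPM and Il2rg 164 CPM in embryonic libraries. The adult averages on that scale were 59.7 and 209 CPM. The ratio of Il4ra to its other partner Il13ra1 averaged 8.33 ± 1.10 in embryonic and 4.61 ± 0.98 in adult libraries, so that Il4ra transcripts exceeded Il13ra1 transcripts 322-fold and 24.5-fold. The Il13ra1 to Il2rg ratio averaged -9.02 ± 1.28 and -6.04 ± 1.04.

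For the TSLP receptor, the Il7r to Crlf2 ratio was -0.93, -0.79 and -0.44 in embryonic and 0.85, 0.72 and 0.55 in adult libraries. Crlf2 was the more abundant chain in every embryonic library and Il7r in every adult library. The Il7r to Il2rg ratio averaged -4.64 ± 0.31 in embryonic and -2.42 ± 0.04 in adult libraries, and the Il21r to Il2rg ratio -5.70 ± 0.14 and -10.19 ± 0.88, so the private chains for IL-7 and IL-21 moved in opposite directions against the chain they share. The Il15ra to Il2rb ratio averaged 2.90 ± 1.03 and -1.41 ± 1.12 but rests on 1, 1 and 9 embryonic Il2rb counts. The Il9r to Il2rg ratio overlapped between groups (-8.82 ± 0.80 and -7.54 ± 0.77, exact permutation p = 0.2, adjusted p = 0.225), as did Il2ra to Il2rb (exact permutation p = 0.3, adjusted p = 0.3), where embryonic counts of both genes are at or near 0.

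**Figure D4:**
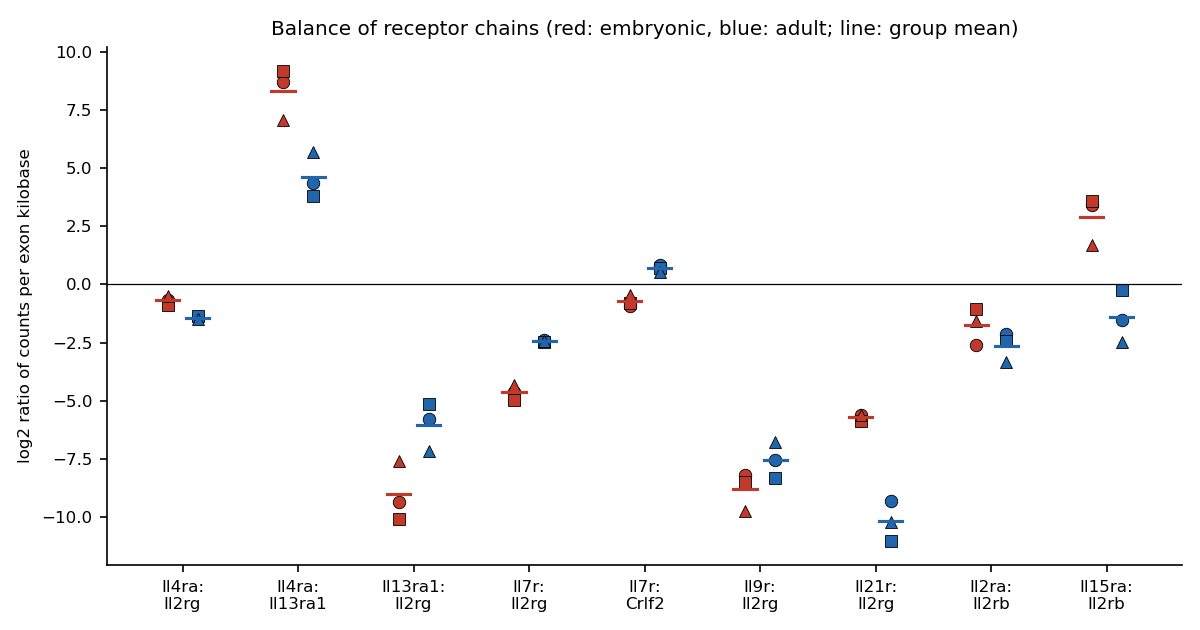
Log2 ratio of counts per exon kilobase for 9 pairs of receptor chains in each embryonic (red) and adult (blue) library (circle, square and triangle for replicates 1, 2 and 3), with group means as lines. Il7r to Crlf2 lies below 0 in all embryonic and above 0 in all adult libraries, and Il21r to Il2rg averages -5.70 and -10.19.

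Of the 8 cytokines that bind these receptors, 2 were higher in adult cells, and most of the others were absent or near the floor. Il15 was at 0.258, 0.0567 and 0.438 CPM in embryonic and at 39.4, 53.1 and 52.6 CPM in adult libraries. The adult libraries held 1957, 2303 and 1998 counts and the embryonic ones 12, 2 and 21, a 180-fold difference (adjusted p = 6.0e-07) that became 271-fold without embryonic replicate 3. Like Il2rb, Il15 passed the filter only through its adult libraries. Dendritic and Langerhans cell markers and macrophage markers were also higher in the adult, and the part of such cells in the Il15 difference was not tested. Il13 was at 6.70, 7.05 and 10.4 CPM in embryonic and at 31.0, 35.5 and 56.7 CPM in the adult. Every adult library exceeded every embryonic one, by 5.09-fold on average (adjusted p = 8.4e-05). Il4 was at 107, 134.5 and 257 CPM in embryonic and 92.7, 109.5 and 101 CPM in adult libraries and was not called (log2 fold change 0.72 ± 0.32 SE, adjusted p = 0.093). The groups overlapped for Il4, and embryonic replicate 3 was well above all other libraries. Il9 and Il21 had 0 counts in every library, which allows at most 3 counts, or 0.0603 to 0.0850 CPM, and Tslp had 5 embryonic and 4 adult counts in all. Il7 had 34 and 14 counts and Il2 20 and 5 counts, too few to be tested.

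Among the Janus kinases and STATs, which carry the signal of these receptors, 5 of 11 had their higher level in adult cells and 2 in embryonic cells, and the median of their log2 fold changes was -0.54. Jak3, the kinase that binds the gamma chain, was at 153, 161 and 138 CPM in embryonic and at 45.4, 42.1 and 40.8 CPM in adult libraries. It was 3.52-fold higher in embryonic cells (log2 fold change 1.82 ± 0.10 SE, adjusted p = 3.2e-07), the reverse of the small difference in Il2rg. Jak1, the kinase of the private chains, was 2.08-fold higher in the adult, at 350 ± 44.7 against 729 ± 39.8 CPM (SD, n = 3, adjusted p = 3.0e-05). Stat5a, used by IL-2, IL-7, IL-9 and TSLP receptors, was 3.18-fold higher in the adult at 36.9 ± 2.83 against 118 ± 17.0 CPM, and Stat3, the main STAT of IL-21, 2.61-fold higher. Stat6, the STAT of IL-4 and IL-13, named after its values were seen, averaged 302 ± 22.8 and 343 ± 13.7 CPM and was not called (log2 fold change -0.18, adjusted p = 0.12).

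Adaptors and phosphatases went both ways, with 6 of 12 higher in adult and 3 in embryonic cells (median log2 fold change -0.31). Irs2, an adaptor that docks on Il4ra, was at 10.3, 9.83 and 5.15 CPM in embryonic and at 100.4, 103 and 112 CPM in the adult, a 12.5-fold difference (adjusted p = 4.1e-06). The phosphatases of Janus kinases split, as Ptpn2 was 2.17-fold higher in embryonic and Ptpn1 1.85-fold higher in adult cells, and Pik3cd, a lipid kinase subunit, was 1.93-fold higher in the adult. Feedback inhibitors were higher in adult cells in 10 of 11 cases and in none higher in embryonic cells, and the median of their log2 fold changes was -1.12. Socs1, which blocks Janus kinases, was 8.61-fold higher at 78.7 ± 13.7 against 9.12 ± 3.42 CPM (adjusted p = 2.0e-05), and Socs4, Socs5 and Socs6 were 2.19-fold to 2.51-fold higher. These shares are read against 31.7% of all tested genes higher in adult and 31.2% higher in embryonic cells.

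Genes listed as STAT5 or STAT6 targets were higher in adult cells in 8 of 14 tested cases and in embryonic cells in 4, and their median change was -0.46 on the log2 scale. Bcl6, a repressor that STAT5 is known to silence, was 25.5-fold higher in the adult at 24.6 ± 3.16 against 0.962 ± 0.130 CPM (adjusted p = 5.4e-08), and the survival genes Bcl2 and Mcl1 were 9.28-fold and 4.22-fold higher. Ccnd2, a D-type cyclin, went the other way, with 292 ± 16.9 CPM in embryonic and 114 ± 17.3 CPM in adult cells (2.56-fold). So did the survival gene Bcl2l1 and Pim1, both named after their values were seen, at 1.725-fold and 2.38-fold higher in embryonic cells. The list holds genes that these STATs are known to raise and genes that they are known to lower. Arg1, Retnla, Chil3, Ccl24 and Fcer2a, known IL-4 response genes of other cells, were too low to be tested.

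In the neighbouring receptor families the directions were mixed. Among receptors with the beta common chain and the IL-13 decoy, 1 of 5 tested was higher in embryonic and 1 in adult cells. Il5ra, the IL-5 chain, averaged 31.3 ± 4.31 CPM in the embryo and 11.5 ± 2.35 CPM in the adult (2.73-fold, adjusted p = 6.2e-05). Csf2rb2, the beta chain of the mouse IL-3 receptor, was 3.01-fold higher in the adult (adjusted p = 0.011), a call lost without embryonic replicate 3 (adjusted p = 0.056) and without it and adult replicate 3 (0.15). Csf2rb was not called (log2 fold change -0.43, adjusted p = 0.10), nor did Il3ra (-0.16, adjusted p = 0.32). Csf2rb and Csf2rb2 are near-identical copies, and how their reads were divided is uncertain. Il13ra2, the decoy that binds IL-13 without signalling, had 0 embryonic and 3 adult counts.

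Of 13 other tested class I cytokine receptors, adult cells had more of 5 and embryonic cells more of 4. Il6ra and Il6st, the chains of the IL-6 receptor, were 4.00-fold and 6.39-fold higher in the adult, and Epor, the erythropoietin receptor, 2.46-fold higher in embryonic cells. Of 8 tested class II receptors, which bind interferons and the IL-10 family, 6 were higher in the adult and none in the embryo, and the median change was -0.82 on the log2 scale. Il10ra and Il10rb, the chains of the IL-10 receptor, were 3.50-fold and 2.98-fold, Ifnar2 2.40-fold and Ifngr2 1.89-fold higher.

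**Figure D5:**
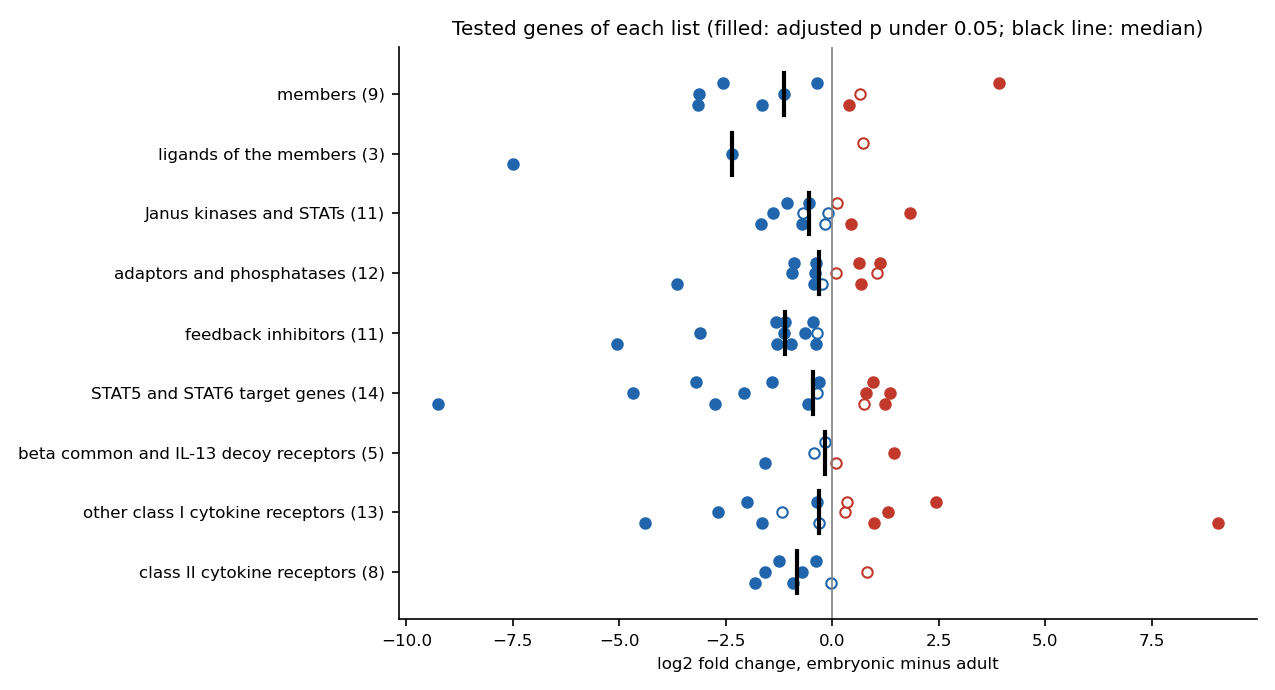
Log2 fold change (embryonic minus adult) of every tested gene in 9 lists, with the number tested in brackets, filled points for an adjusted p under 0.05 and a black line at each median. The receptor chains have a median of -1.14 and the feedback inhibitors of -1.12, and the leftmost point, Ccl22, is a fitted value against a group with 0 counts and is no bound.

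As a description of like patterns, both abundant chains were compared with other genes across all 6 libraries. Among 6644 genes with a mean of at least 20 CPM, the 5 whose centred log2 CPM differed least from that of Il2rg were Foxn2, Arfrp1, Gps2, Asb1 and Nr1h2, with root mean square differences of 0.0678 to 0.0812 log2 units. Among those nearest to Il4ra were Kcne3, Zfp263, Zfp410 and Mum1, at 0.0541 to 0.0765 log2 units. The receptor chains themselves were left out, and likeness over 6 libraries in 2 groups describes these libraries only.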

How the data were processed

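RNA from 6 libraries was measured as poly(A) cDNA made with the SMART-Seq v4 kit and tagmented with Nextera XT, per the labels' protocols. The authors deposited read counts per gene, made with featureCounts 1.5.0-p1 over exons of GENCODE M9, without strand (setting 0) and ignoring reads marked as duplicates, per the file headers. STAR, GRCm38 (mm10) and edgeR are named in the submitters' processing notes; whether duplicates had been marked is not given in the sources used here. If they were removed, abundant genes would be capped. The deposited table also gives the exon length of each gene, used here for levels per kilobase and in no other unit.

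Symbols were matched by Ensembl ID (47224 of 47643). Group differences were estimated by edgeR 4.0.16 under R 4.3.3 (TMM, filterByExpr with a minimum count of 10, robust quasi-likelihood fit, Benjamini-Hochberg over 15111 genes, threshold 0.05). The SE is the log2 fold change divided by the square root of F. The biological coefficient of variation was 22.5%. Chain ratios used counts plus 0.5 per exon kilobase and exact permutation tests. Same-group libraries differed beyond counting noise (chi-square per degree of freedom 34.3 to 89.1), and each counted as 1 replicate. A floor is 3 counts.

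The members, the 8 other receptor and signalling lists and the 13 cell type lists were chosen with earlier results of these data known. Named genes are the members, the ligands, in each signalling list the 4 smallest adjusted p-values plus the smallest in the rarer direction, the 3 most abundant markers of each list of other cells, and the 5 genes most like Il2rg and Il4ra; some genes so named are not reported, and the T, NK, innate lymphoid and fibroblast markers outside the 3 most abundant of each list, and those given as having 0 counts, were named after their values were seen. Alternatives were RLE and upper quartile scaling, 2 other filters, DESeq2 1.42.0, limma-voom (limma 3.58.1), no robust estimation, a replicate block, a threshold of 0.01, leaving out each library or both replicates 3, and other added counts.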

Additional observations from a re-analysis of the deposited data

How the results depend on the processing

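Il7r, Il21r and Crlf2 kept their direction and call in all 16 alternatives each, and Il2rb in all 15 in which it was tested. No alternative reversed any of the receptor chains or chain ratios. With an adjusted p threshold of 0.01, 3 chains remained higher in adult and 1 in embryonic cells, and Il2rg (-0.35), Il4ra (0.39), Il9r (-1.66) and Il13ra1 (-3.16) no longer passed. With genes of at least 1 count, Il13ra1 (-3.13) had an adjusted p of 0.074. Replicate numbers showed no sign of pairing these libraries: deviations of same-numbered libraries correlated at -0.122, -0.0791 and -0.133, and no library correlated best with its own number. With so few libraries these correlations cannot exclude a shared day or batch, which the labels do not give. With the replicate number as a block, Il2rg (-0.36) and Il4ra (0.39) no longer passed, leaving 1 chain higher in embryonic cells and 5 in adult cells; over all genes the block gave 4379 and 4469 calls, against 4722 and 4797 without it. Chain ratios kept their direction under the block, where the smallest exact p of 3 differences is 0.25. Leaving out libraries moved Il2rg from -0.41 to -0.22, Il4ra from 0.21 to 0.51, Il9r from -1.98 to -0.95 and the number of chains higher in embryonic cells from 1 to 2. The cause of these losses was not tested. Leaving out a library also leaves fewer samples. Depth limits Il2ra, Il2rb and Il15ra, where libraries held as few as 0, 1 and 6 counts. Reads in the exons that Il2rg shares with Gm20489, and Il4ra with Gm44876, were not counted under any setting.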

Other observations

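Of 4 tested B cell markers, Blnk, an adaptor also used in myeloid cells, averaged 2.74 ± 0.373 CPM in the embryo and 80.03 ± 6.61 CPM in the adult, whereas Cd79b averaged 6.96 ± 0.537 and 0.0490 ± 0.0635 CPM, and Ms4a1 and Pax5 had 0 counts in all libraries. The B cell list reached 9.58 to 12.0 CPM in the embryo and 74.7 to 88.6 CPM in the adult. Eosinophil markers summed to 45.8 to 53.4 and 13.6 to 18.2 CPM, mostly Il5ra and Siglecf, with Epx and Ear1 at 0 counts. Basophil markers summed to 547 to 605 and 661 to 789 CPM, mostly Cd200r3, and neutrophil and progenitor markers to 0.438 to 0.902 and 0.254 to 0.764 CPM. Endothelial markers together gave 41.5 to 52.3 CPM in the embryo and 10.4 to 16.6 CPM in the adult, with Pecam1 at 24.0 ± 1.81 and 3.22 ± 1.19 CPM. The fibroblast list summed to 828 to 951 and 625 to 947 CPM, the latter with Pdgfrb at 483 ± 46.2 CPM.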
